A study of Mus musculus with 6 samples.

Results

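The genes described here are 10 genes of steroid synthesis and endocrine function in Leydig cells, the cells between the seminiferous tubules that make testosterone. They were chosen by symbol (Star, Cyp11a1, Cyp17a1, Hsd3b1, Hsd3b6, Hsd17b3, Insl3, Lhcgr, Fdx1 and Nr5a1), and all 10 were found among the 25165 gene symbols of the deposited tables. Whole testes of 8-week-old C57BL/6 mice were sequenced as total RNA in 6 libraries, 3 titled KO and 3 titled WT, to compare mice lacking the long non-coding RNA Teshl (NR_038002) with wild type. Each library's title goes against its genotype field, which gives wild type for the 3 titled KO and NR_038002-/- for the 3 titled WT. Libraries are therefore named by title, and differences are given as titled KO minus titled WT. No treatment is named. How the allele was made, and whether each library is a separate animal, is not stated in the sources used here, so p-values reflect only the spread among these libraries, part of which may be technical.

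Values are FPKM, a unit that corrects fragment numbers for transcript length and library depth, so levels of different genes can be compared per length. Judged from how low values are spaced, each library held between 27900000 and 39300000 fragments. The targeted gene 1700027A15Rik was at 0.385 FPKM in titled KO replicate 1, listed at 0 in the other two, and at 1028, 989 and 1081 FPKM in titled WT, which matches the titles rather than the genotype field. Of 12952 genes that reached a mean of 1 FPKM in either group, 149 passed limma at a Benjamini-Hochberg adjusted p under 0.05, and the median log2 fold change was -0.04. Leaving out single libraries moved that count to 73 (titled KO replicate 2), 77 (titled KO replicate 3), 81 (titled WT replicate 1) or 233 (titled WT replicate 3).

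Leydig cells respond to luteinizing hormone from the pituitary, whose receptor raises cyclic AMP in the cell. Cholesterol is then moved into mitochondria, cut to pregnenolone, and turned into testosterone by enzymes of the mitochondria and the endoplasmic reticulum. The same cells secrete insulin-like peptide 3, which acts in testis descent and on germ cells.

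In these testes none of the 10 genes passed the test, where 1.15% of all tested genes did. Of the 10, 9 had a log2 fold change below 0, beside 65.7% of all tested genes. The median over the 10 was -0.14 on the log2(FPKM + 1) scale, with values from -0.29 (Hsd3b1) to 0.0054 (Fdx1). Leaving out 1 library moved that median most for titled WT replicate 2 (to -0.072) and titled WT replicate 1 (to -0.21). Hsd3b1 alone had no overlap between the groups, a separation in that direction seen in 15.8% of tested genes. It was also the only one of the 10 with an unadjusted p under 0.05 by limma (8.89% of tested genes in that direction). With median-of-ratios scaling the median was -0.096 over the 10 and -0.0030 over all tested genes, where the main fit gave -0.043 over all tested genes. For any lower level in whole testis, fewer Leydig cells, less RNA per Leydig cell and a larger share of RNA from other cells cannot be told apart.

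**Figure D1:**
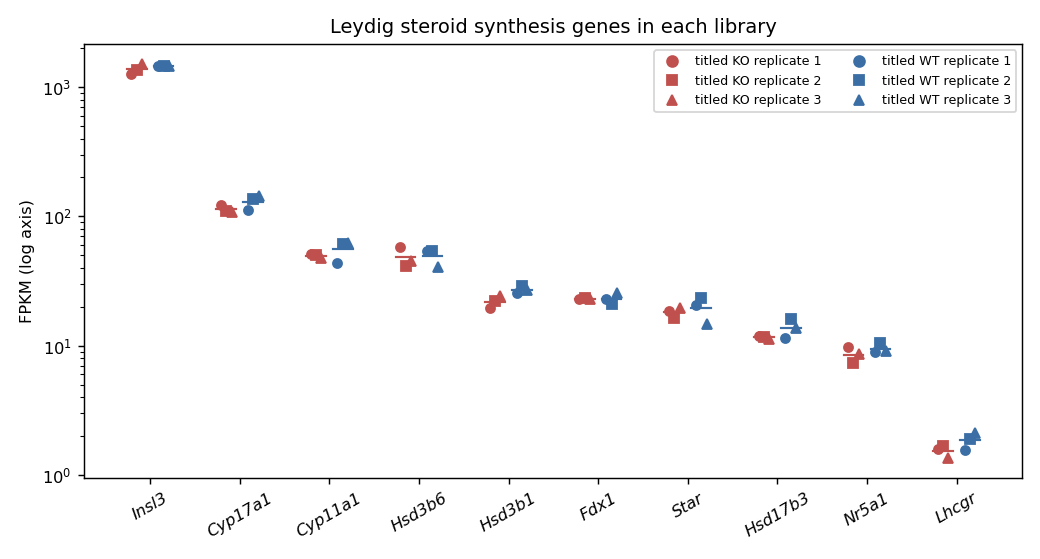
FPKM of the 10 genes (log axis) in each library, titled KO in red and titled WT in blue, with symbols for replicates and short lines for group means. Insl3 lies between 1258 and 1516 FPKM and Lhcgr between 1.35 and 2.11 FPKM, and the groups overlap for every gene except Hsd3b1.

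Upstream sequence is shown for the pair of 3-beta-hydroxysteroid dehydrogenase genes, one of which was the only gene with separated groups, and for Insl3 and Fdx1, the genes with the highest level and the smallest difference. RefSeq promoters (GRCm38.p6) were found for 7 of the 10 genes. Star, Cyp17a1 and Nr5a1 had none. Both windows listed for Cyp11a1 belong to starts 8387 and 8541 bases from the GENCODE start and are not shown. The 250 bases before the RefSeq start were searched on both strands for TCAAGG, the core of the site bound by steroidogenic factor 1, the product of Nr5a1, for AGATAA, a site of GATA factors, and for TATAAA, the TATA box. Each sequence runs 5′ to 3′ on the strand of its gene, and capitals mark any of these matches, on either strand.
Hsd3b1, chr3:98859795-98860044, minus strand: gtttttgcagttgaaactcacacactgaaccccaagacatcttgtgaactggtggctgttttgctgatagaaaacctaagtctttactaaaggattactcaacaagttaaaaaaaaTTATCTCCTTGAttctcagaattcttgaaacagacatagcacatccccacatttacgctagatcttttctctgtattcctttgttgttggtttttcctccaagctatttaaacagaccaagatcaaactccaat
Hsd3b6, chr3:98814444-98814693, minus strand: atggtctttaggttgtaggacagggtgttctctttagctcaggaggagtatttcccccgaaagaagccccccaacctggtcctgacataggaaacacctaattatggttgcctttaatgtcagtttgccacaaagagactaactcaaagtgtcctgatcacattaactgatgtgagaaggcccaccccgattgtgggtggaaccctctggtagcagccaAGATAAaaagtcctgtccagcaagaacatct
Insl3, chr8:71689002-71689251, plus strand: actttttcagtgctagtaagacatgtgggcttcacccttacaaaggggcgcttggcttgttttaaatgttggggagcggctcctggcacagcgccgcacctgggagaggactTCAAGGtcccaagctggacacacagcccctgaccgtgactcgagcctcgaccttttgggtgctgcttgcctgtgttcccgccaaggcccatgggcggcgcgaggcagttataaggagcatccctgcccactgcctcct
Fdx1, chr9:51963603-51963852, minus strand: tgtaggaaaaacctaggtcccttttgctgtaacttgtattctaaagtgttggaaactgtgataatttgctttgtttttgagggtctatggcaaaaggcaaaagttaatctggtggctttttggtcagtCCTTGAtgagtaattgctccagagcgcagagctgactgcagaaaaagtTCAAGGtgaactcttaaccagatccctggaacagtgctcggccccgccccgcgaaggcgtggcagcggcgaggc

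TCAAGG was found in 4 of the 8 windows of these genes, those of Hsd3b1, Insl3, Lhcgr and Fdx1, and in 12.5% of all 32851 promoters of the table. Fdx1 holds it at 2 places. AGATAA was found in Hsd3b1 and Hsd3b6, and in 9.99% of all promoters. TATAAA was found in 0 of the 8 windows and in 12.4% of all promoters. The 8 windows include both of Cyp11a1, which lie far from its GENCODE start and held no match. In Hsd3b1 the GATA match and the TCAAGG match, both on the opposite strand, lie end to end without overlap. These matches describe letters in the windows, not bound sites.

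The order of mean levels over the 6 libraries ran from the secreted peptide to the hormone receptor. Insl3 averaged 1416 FPKM and ranked 11 among all symbols. Cyp17a1 followed at 122 FPKM (rank 613), Cyp11a1 at 52.6 and Hsd3b6 at 48.96 FPKM. Hsd3b1 averaged 24.5, Fdx1 23.1 and Star 18.9 FPKM. Hsd17b3, at 12.7 FPKM, Nr5a1, at 9.01 FPKM, and Lhcgr, at 1.69 FPKM (rank 11356), closed the order. Neighbours whose ranges over the libraries overlapped were Cyp11a1 and Hsd3b6, Hsd3b1 and Fdx1, and Fdx1 and Star, so their places are not firm. The ranges of Star and Hsd17b3 overlapped too, but Star was the higher of the pair in each of the 6 libraries. The ranges of all other neighbours were apart. Among markers of other cells that make steroids, 5 of the adrenal cortex were looked at, and none reached the mean of 1 FPKM in either group that testing needed. Cyp21a1, a steroid 21-hydroxylase gene, was the highest of them at 0.442 to 1.07 FPKM, below Lhcgr in every library. Cyp11b1 lay between 0.0418 and 0.178 FPKM, and Mc2r was listed at 0 in all libraries, which may be a failed estimate. The 5 markers summed to 0.671 to 1.45 FPKM in titled KO and 0.957 to 1.30 FPKM in titled WT.

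Lhcgr encodes the receptor for luteinizing hormone (chromosome 17, 88716481 to 88791990 of GRCm38, minus strand, GENCODE M21). It was at 1.58, 1.66 and 1.35 FPKM in titled KO, against 1.57, 1.89 and 2.11 FPKM in titled WT. Titled WT replicate 1 lay among the libraries titled KO, and the other two lay above all of them. The log2 fold change was -0.17 (SE 0.09, 95% interval -0.37 to 0.03, limma adjusted p = 0.401). As a gene near the pseudocount it depends on the scale: with a pseudocount of 0.1 the value was -0.26 (limma adjusted p = 0.405). If all of its fragments came from its longest transcript, 1 of 4, these levels equal about 299 to 462 fragments per library and a counting error of up to about 5.78%. Shorter transcripts would mean fewer fragments and a larger error.

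Nr5a1 encodes steroidogenic factor 1, a nuclear receptor that drives most genes of this set (chromosome 2, 38692656 to 38714542, minus strand). Its levels were 9.73, 7.32 and 8.58 FPKM in titled KO and 8.86, 10.5 and 9.02 FPKM in titled WT. The groups overlapped, since titled KO replicate 1 stood above 2 of the libraries titled WT. Nr5a1 had a log2 fold change of -0.14 (SE 0.10, 95% interval -0.37 to 0.09, limma adjusted p = 0.528). Nr5a1os, a gene on the opposite strand, lies across Nr5a1 without shared exon positions.

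Star carries cholesterol to the inner mitochondrial membrane, the rate-limiting step (chromosome 8, 25806555 to 25815982, plus strand). It was at 18.5, 16.5 and 19.6 FPKM in titled KO, against 20.7, 23.4 and 14.7 FPKM in titled WT. Both the highest and the lowest level belonged to titled WT, replicates 2 and 3. On average Star differed by a log2 fold change of -0.08 (SE 0.16, 95% interval -0.46 to 0.30, limma adjusted p = 0.818), and it was 0.054 without titled WT replicate 2.

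Fdx1 encodes ferredoxin 1, which passes electrons to mitochondrial P450 enzymes (chromosome 9, 51943306 to 51963556, minus strand). Its level was 23.0, 23.2 and 23.1 FPKM in titled KO and 22.8, 20.9 and 25.7 FPKM in titled WT. The libraries titled KO were nearly equal (coefficient of variation 0.472%, below the counting error of about 2.39%) and lay inside the range of those titled WT (10.5%). A log2 fold change of 0.0054 resulted (SE 0.07, 95% interval -0.16 to 0.17, limma adjusted p = 0.976), and it was below 0 with equal library totals (-0.0074).

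Cyp11a1 encodes the side-chain cleavage enzyme that makes pregnenolone (chromosome 9, 58006411 to 58027023, plus strand). It was at 50.8, 50.3 and 47.9 FPKM in titled KO, against 43.4, 61.5 and 61.9 FPKM in titled WT. The libraries titled KO lay close together, between titled WT replicate 1 and the other two. The log2 fold change was -0.14 (SE 0.13, 95% interval -0.45 to 0.16, limma adjusted p = 0.612). Without titled WT replicate 1 it was -0.31 and still did not pass (limma adjusted p = 0.0885). GENCODE M21 places the non-coding gene Gm17322 over an exon of Cyp11a1 on the same strand, so how reads were divided there is uncertain.

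Hsd3b1 and Hsd3b6 encode 3-beta-hydroxysteroid dehydrogenases, which turn pregnenolone into progesterone, and lie near each other on chromosome 3 (98852194 to 98859794 and 98805504 to 98814443, minus strand). Hsd3b6 is the form known from adult Leydig cells. Hsd3b1 was at 19.5, 22.1 and 24.1 FPKM in titled KO, against 25.3, 28.7 and 27.1 FPKM in titled WT. The highest library titled KO was thus below the lowest titled WT. The means were 21.9 ± 2.30 and 27.0 ± 1.69 FPKM (SD, n = 3 each), a ratio of 0.811. The log2 fold change was -0.29 (SE 0.08, 95% interval -0.48 to -0.11), and after adjustment over all tested genes it did not pass (limma adjusted p = 0.158).

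Hsd3b6 was at 58.1, 41.1 and 45.2 FPKM in titled KO, against 54.2, 54.3 and 40.8 FPKM in titled WT. Titled KO replicate 1 held the highest Hsd3b6 and the lowest Hsd3b1 of the 6 libraries. The log2 fold change of Hsd3b6 was -0.05 (SE 0.16, 95% interval -0.43 to 0.33, limma adjusted p = 0.888), and it changed sign without titled KO replicate 2, titled WT replicate 1 or titled WT replicate 2. The longest transcript of Hsd3b6 aligns to Hsd3b3 over 82.5% of its length at 93.9% identity, to Hsd3b2 over 92.4% at 92.6%, and to Hsd3b1 over 72.5% at 88.7%. How reads were divided among these copies is therefore uncertain. Hsd3b2 and Hsd3b3 were low, at 0.371 to 0.523 FPKM and 0.650 to 0.940 FPKM. Summed, a choice made after the values were seen, Hsd3b1 and Hsd3b6 stood at 77.7, 63.2 and 69.3 FPKM in titled KO and 79.5, 83.0 and 67.9 FPKM in titled WT. For the sum the groups overlapped (log2 fold change -0.13, limma adjusted p = 0.523).

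Cyp17a1 encodes the P450 that makes androgens from progestins (chromosome 19, 46667165 to 46673172, minus strand). It was at 123, 110 and 107 FPKM in titled KO, against 111, 135 and 144 FPKM in titled WT. Titled WT replicates 2 and 3 were the highest libraries, and replicate 1 lay among those titled KO. For Cyp17a1 the log2 fold change was -0.19 (SE 0.10, 95% interval -0.41 to 0.03, limma adjusted p = 0.4).

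Hsd17b3 encodes the enzyme of the last step, from androstenedione to testosterone (chromosome 13, 64058266 to 64089230, minus strand). It was at 11.8, 11.7 and 11.3 FPKM in titled KO, against 11.4, 16.2 and 13.7 FPKM in titled WT. As with Cyp17a1, titled WT replicate 1 fell within the range of titled KO. Hsd17b3 had a log2 fold change of -0.22 (SE 0.11, 95% interval -0.46 to 0.03, limma adjusted p = 0.393).

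Insl3 encodes insulin-like peptide 3 (chromosome 8, 71689214 to 71690575, plus strand). It was at 1258, 1361 and 1516 FPKM in titled KO, against 1444, 1459 and 1457 FPKM in titled WT. The libraries titled WT were nearly equal (coefficient of variation 0.562%, near the counting error of about 0.631%), while those titled KO lay on both sides of them (9.42%), the reverse of the picture for Fdx1. Whether the spreads differ between groups was not tested. For Insl3 the log2 fold change was -0.08 (SE 0.06, 95% interval -0.22 to 0.06, limma adjusted p = 0.554). Over 64.8% of its length its transcript is identical to part of a Jak3 transcript, and the genes overlap on the same strand. Jak3, a kinase gene of cytokine receptors, was listed at 0 in all 6 libraries, so how reads of the shared exons were divided is uncertain.

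**Figure D2:**
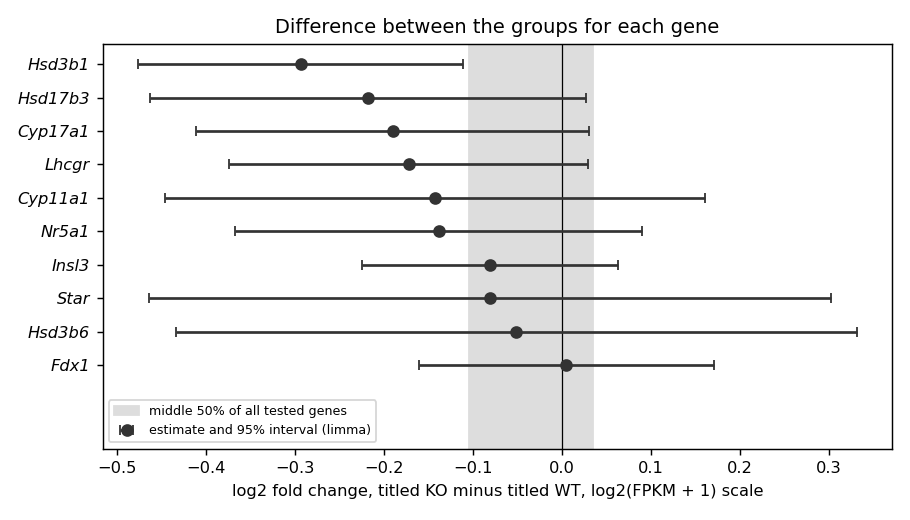
Log2 fold change of each gene, titled KO minus titled WT on the log2(FPKM + 1) scale, with its 95% interval from limma; the grey band spans the middle 50% of all 12952 tested genes. Hsd3b1 alone has an unadjusted interval that does not reach 0, and the intervals of Star and Hsd3b6 reach from below -0.4 to above 0.3.

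The 95% intervals, which are not adjusted for the number of genes, show what size of difference the data allow. They were narrowest for Insl3, from 0.856-fold to 1.04-fold, and Fdx1, from 0.895-fold to 1.13-fold. For Star the interval was 0.725-fold to 1.23-fold and for Hsd3b6 0.741-fold to 1.26-fold, so the data allow changes within them in either direction. For Hsd3b1 it was 0.719-fold to 0.926-fold, yet Hsd3b1 did not pass after adjustment, so the bounds are not limits of detection. These bounds are on the FPKM + 1 scale, which understates differences of low genes such as Lhcgr.

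Libraries differed in how many of the 10 genes were high. Titled WT replicate 2 held 9 genes above their own mean over the libraries and replicate 3 held 8, while titled WT replicate 1 held 4. In titled KO the numbers were 3, 1 and 3. The mean of the 10 centred log2 levels was -0.03, -0.11 and -0.06 in titled KO and -0.02, 0.17 and 0.06 in titled WT, so titled WT replicate 1 stood just above titled KO replicate 1. Without titled WT replicate 1, 5 of the 10 genes (Cyp11a1, Cyp17a1, Hsd3b1, Hsd17b3 and Lhcgr) had an unadjusted p under 0.05 by limma, all lower in titled KO, as 10.6% of all tested genes were in that fit, and 0 passed adjustment. Leaving out any other library gave 1 to 3 such genes.

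**Figure D3:**
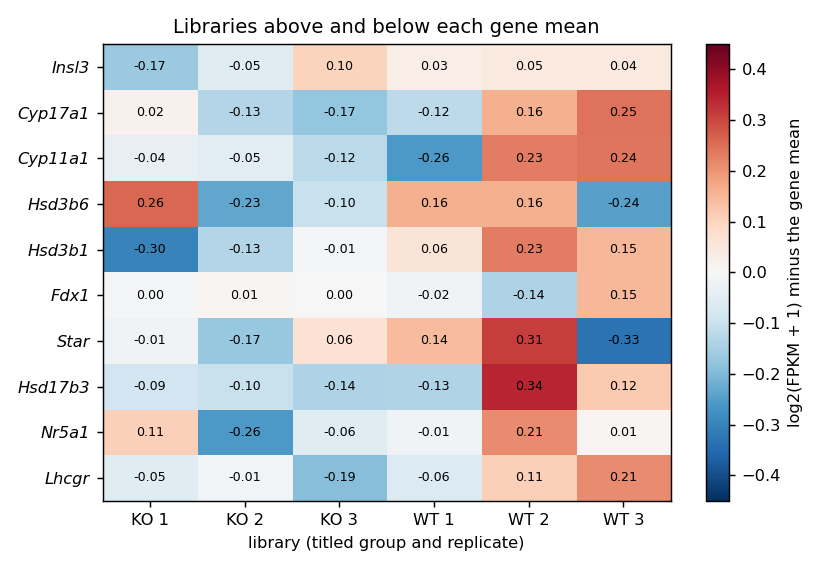
Each cell is the log2(FPKM + 1) level of a gene in a library minus the mean of that gene over the 6 libraries, red above and blue below. Titled WT replicates 2 and 3 are above the mean for 9 and 8 of the genes, and titled WT replicate 1 for 4.

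The summed level of the 10 genes was 1574, 1645 and 1804 FPKM in titled KO and 1744, 1811 and 1796 FPKM in titled WT. Insl3 made up 79.9% to 84.0% of that sum. Without Insl3 the sums were 316, 284 and 288 FPKM in titled KO and 299.5, 352 and 339 FPKM in titled WT, means of 296 ± 17.2 and 330.2 ± 27.4 FPKM (SD, n = 3 each). The groups overlapped in both sums.

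A share of Leydig RNA that is common to a pair of genes cancels in their ratio within a library. The ratio of Cyp17a1 to Cyp11a1 was the steadiest, at 2.41, 2.19 and 2.24 in titled KO and 2.56, 2.20 and 2.32 in titled WT (difference of log2 ratios -0.05, exact two-sided permutation p = 0.6). For Hsd17b3 to Cyp17a1 it was 0.0962, 0.106 and 0.106 against 0.102, 0.120 and 0.0956 (exact permutation p = 0.9). Insl3 to Star gave 68.0, 82.4 and 77.4 against 69.6, 62.3 and 99.4 (exact permutation p = 1). Hsd3b6 to Hsd3b1 gave 2.97, 1.86 and 1.87 against 2.14, 1.89 and 1.51 (difference of log2 ratios 0.25, exact permutation p = 0.6). Groups overlapped in all 4 ratios, where the smallest p that 3 against 3 libraries can give is 0.1, and adjustment over the 4 can only raise these values. Leaving out titled KO replicate 1, which stood apart in the Hsd3b6 to Hsd3b1 ratio, brought that difference to 0.029.

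**Figure D4:**
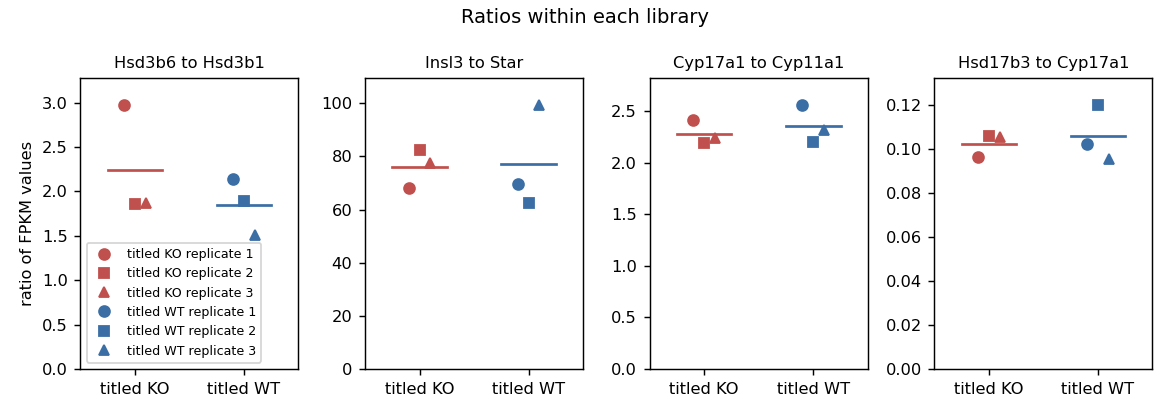
Ratio of FPKM values of the named pair in each library, titled KO in red and titled WT in blue, with lines for group means and axes from 0. The groups overlap in all 4 panels, and titled KO replicate 1 is the highest for Hsd3b6 to Hsd3b1.

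None of the tested genes in other lists of steroid synthesis and hormone signalling passed the test. Of 19 partners of the pathway 14 were tested and 0 passed limma (1 with an unadjusted p under 0.05, beside 14.3% of all tested genes), with a median log2 fold change of -0.09. The smallest p belonged to Vdac1, a channel of the outer mitochondrial membrane (12.4 ± 0.731 against 14.2 ± 1.04 FPKM, SD, n = 3 each; log2 fold change -0.18, limma adjusted p = 0.295). Next came Por, which passes electrons to P450 enzymes of the endoplasmic reticulum (log2 fold change -0.15, limma adjusted p = 0.353). Both had no overlap between the groups, as did 3 of the 14 in all, titled KO lower each time, where 15.8% of all tested genes were so separated.

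Among 13 genes of cholesterol supply 0 passed (2 unadjusted), with a median of -0.08. Hsd17b10, a mitochondrial dehydrogenase, stood at -0.25 in log2 (limma adjusted p = 0.286). Scarb1, the receptor that takes up cholesterol from lipoproteins, had the highest value of that list (0.18, limma adjusted p = 0.374). Of the 12 genes of the luteinizing hormone and cyclic AMP signal, 9 were tested and 0 passed (1 unadjusted; median -0.07). Prkar1a, a regulatory subunit of protein kinase A, was at -0.18 in log2 (limma adjusted p = 0.246), and Gnas, the stimulatory G protein, -0.16 (limma adjusted p = 0.357).

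Of 16 transcription factors and signals that act on steroid genes 10 were tested and 0 passed (2 unadjusted; median -0.04). Nr0b1, which encodes DAX1, a repressor of steroidogenic factor 1, was at 7.05, 7.07 and 7.40 FPKM in titled KO, against 8.92, 8.11 and 8.35 FPKM in titled WT, without overlap (difference of -0.21 in log2, limma adjusted p = 0.183). Cebpb, a basic leucine zipper factor, had a log2 fold change of -0.33 with overlap (limma adjusted p = 0.325). Of 13 hormone receptors and androgen-responsive genes 11 were tested and 0 passed (2 unadjusted; median -0.07). Shbg, the gene of sex hormone-binding globulin, was at 3.14 ± 0.0821 and 3.81 ± 0.174 FPKM (SD, n = 3 each; log2 fold change -0.22, limma adjusted p = 0.189). Tubb3, a tubulin gene, had a value of -0.19 (limma adjusted p = 0.294), and Rhox5, a Sertoli gene induced by androgen, one of 0.03 (limma adjusted p = 0.876).

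Of 18 further markers of Leydig cells 15 were tested and 0 passed (3 unadjusted). A log2 fold change below 0 was found for 14 of the 15, beside 65.7% of all tested genes, with a median of -0.22 that was -0.13 without titled WT replicate 2. The sum over the list was 423 to 443 FPKM in titled KO and 498 to 556 FPKM in titled WT. Most of it came from Ptgds and Aldh1a1 (means of 188 and 105 FPKM over all libraries), each with overlap between the groups. The mean of the centred log2 levels of the 15 genes, which weighs genes alike, overlapped between the groups. It was -0.01, -0.21 and -0.11 in titled KO and -0.05, 0.24 and 0.15 in titled WT. Ddah1, an enzyme that breaks down methylated arginine, stood at -0.24 in log2 (limma adjusted p = 0.183), and Ces1d, a carboxylesterase, -0.27 (limma adjusted p = 0.294), both without overlap. The lowest values were those of the kallikrein genes Klk1b21, Klk1b27 and Klk1b24 (-0.46, -0.44 and -0.43), members of 1 family of similar genes whose shared reads may have been split unevenly. Klk1b24 was at 15.3, 12.1 and 15.2 FPKM in titled KO, against 11.5, 27.2 and 23.1 FPKM in titled WT. As for Cyp11a1, titled WT replicate 1 was the lowest library and replicates 2 and 3 the highest, and without replicate 1 Klk1b24 passed (difference of -0.79 in log2, limma adjusted p = 0.0436). Leaving out the only library titled WT that lay below titled KO made a larger difference certain, so this pass is no support for a change.

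None of the tested markers of other cells passed limma over all genes. An unadjusted p under 0.05 was found for 12 of 52, beside 14.3% of all tested genes. Of the 12, 3 spermatid markers and 1 peritubular marker were higher in titled KO and the rest lower. The lists were chosen with earlier results of these data known, so the 2 shares cannot be compared as a test. Log2 fold changes of these markers are given beside the 65.7% of all tested genes that lay below 0. Sertoli markers had 10 of 11 tested genes below 0 (median -0.09, sums of 500.1 to 548 FPKM in titled KO and 527 to 594 FPKM in titled WT), led by Inha (-0.21, limma adjusted p = 0.191) and Gata1 (-0.25, limma adjusted p = 0.192). Macrophage markers had 6 of 7 (median -0.10, sums of 33.8 to 39.1 and 35.4 to 48.9 FPKM), with Mrc1 at -0.14 and C1qa at -0.10, and endothelial markers 3 of 4 (median -0.22, sums of 7.20 to 7.77 and 8.08 to 10.03 FPKM), with Egfl7 at -0.33 and Pecam1 at -0.32. Without titled WT replicate 2 the macrophage median was 0.045 and the endothelial median -0.076. Peritubular markers had 5 of 7 (median -0.13, and -0.00011 without titled WT replicate 2), with Cnn1 at -0.24 and Actg2 at 0.22 (limma adjusted p = 0.151). Their sum was higher in titled KO without overlap, at 170 to 174 FPKM against 148 to 163 FPKM in titled WT. Most of this sum was Actg2, whose mean was 142 (titled KO) against 122 FPKM (titled WT). Acta2, the next highest gene, went the other way, with means of 14.3 (titled KO) against 16.1 FPKM (titled WT). The higher sum therefore describes Actg2 rather than the list, in which 5 of 7 genes were below 0. Blood markers had 3 of 4 below 0 (median -0.11), with Alas2 at -0.18, Hbb-bt at -0.04, and the alpha-globin genes Hba-a2 at -0.55 and Hba-a1 at 0.42. Shared reads of these similar alpha-globin genes may have been split unevenly, so their opposite directions are not firm. The sums of the blood markers were 59.9 to 95.9 FPKM in titled KO and 69.5 to 91.6 FPKM in titled WT. Spermatogonia markers had 4 of 5 (median -0.18), with Uchl1 at -0.38 (limma adjusted p = 0.0864) and Kit at -0.18. Spermatocyte markers had 4 of 7 (median -0.04), with Dmc1 at -0.20 and Sycp1 at -0.12.

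Of 7 spermatid markers 1 was below 0, and the median was 0.12. Without titled WT replicate 2 it was 0.052. Prm1 (log2 fold change 0.25, limma adjusted p = 0.0682) and Tnp2 (0.35, limma adjusted p = 0.0735), which package the sperm nucleus, had no overlap between the groups (5.92% of tested genes in that direction). The 7 spermatid markers made up 7.84% to 8.06% of all FPKM in titled KO and 6.54% to 7.25% in titled WT. Most of this was Prm1, Prm2, Tnp2 and Tnp1 (means of 9413, 8285, 5911 and 5253 FPKM over all libraries). The share therefore describes these genes rather than the list, in which Tnp1, Acrv1, Spaca1 and Odf1 overlapped between the groups. The target 1700027A15Rik overlaps exon positions of Tnp1 on the opposite strand. In alternative fits Prm1, Prm2 and Tnp2 passed with equal library totals, as did Uchl1, and the same spermatid genes and Actg2 passed without titled WT replicate 3. The part of these other cells in the values of the Leydig genes was not tested.

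**Figure D5:**
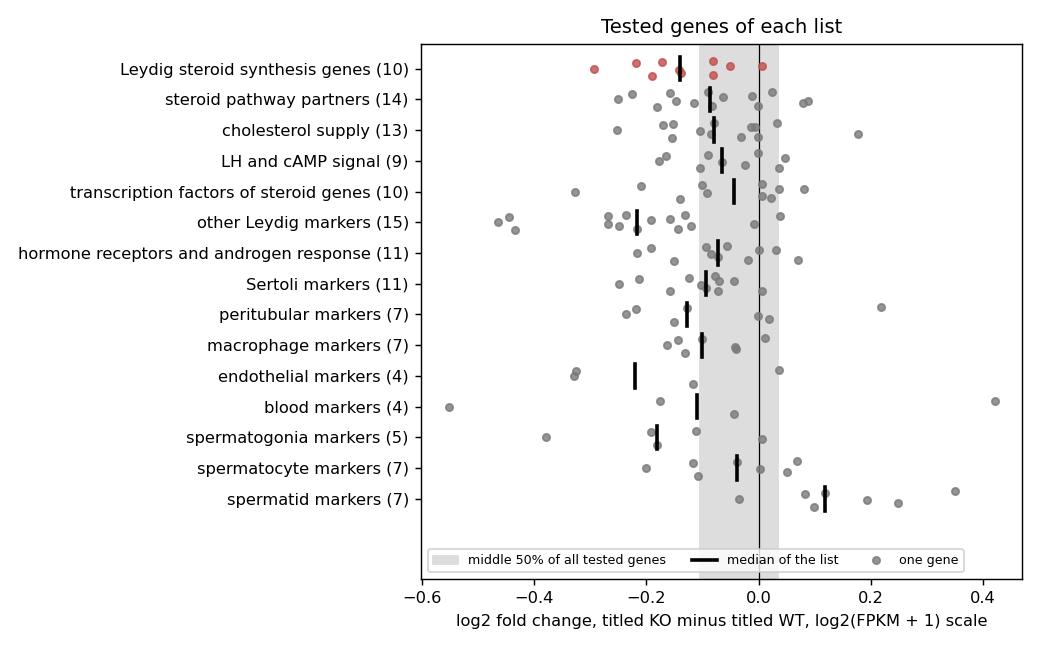
Log2 fold change of every tested gene (dots), titled KO minus titled WT, in each list, with the number of tested genes in brackets, black bars at list medians and a grey band for the middle 50% of all tested genes. The medians of the steroid genes (-0.14), other Leydig markers (-0.22), endothelial (-0.22), spermatogonia (-0.18), peritubular (-0.13) and blood markers (-0.11) lie below the band, and that of spermatid markers (0.12) lies above it.

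The genes whose profile over the 6 libraries was nearest to the mean profile of the 10 were Pmpcb, a mitochondrial processing peptidase gene, Rpl3, a ribosomal protein gene, Golim4, Trim27 and Tnpo3. Their root mean square differences from it were 0.00997, 0.0109, 0.0121, 0.0123 and 0.0127 on the log2 scale, beside a median of 0.0992 over the other 12942 tested genes. The 10 genes themselves were farther from their own mean profile, at 0.0862 (Nr5a1) to 0.192 (Hsd3b6). A gene with the same level in every library would lie at 0.0905, and 9 of the 10 were farther than that. Like the mean profile they were chosen to follow, all 5 nearest genes were highest in titled WT replicate 2 and lowest in titled KO replicate 2.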

How the data were processed

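Total RNA of whole testis was made into libraries with a directional kit, per the labels' protocols. The submitters' processing notes name HISAT2 and mm10, while no source used here gives the quantifier, the annotation or the strand setting. The deposited tables hold values taken as FPKM from the values themselves, normalized for length and depth by the authors. Depth was read from value times length in genes with 1 transcript, where 1 and 2 fragments form clusters (tolerance 0.02 on the log10 scale). A count of 3 fragments on 1 kb equals 0.0764 to 0.107 FPKM, and such limits cover counting error only.

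Rows were summed per symbol, and each of the 10 genes had 1 row. The main test was limma 3.58.1 (R 4.3.3), with a mean-variance trend and robust empirical Bayes and without a block, on log2(FPKM + 1) of the 12952 genes that reached a mean of 1 FPKM in either group. Its p-values were adjusted by Benjamini-Hochberg over all of them. Fold changes on this scale understate those of low genes. Ratios were compared with exact permutation tests (SciPy 1.17.1). Positions are from GENCODE M21 (GRCm38, the assembly of mm10), and copies were sought with BLAST 2.17.0 (alignments of 80% identity or more that cover 50% or more of a transcript). The fit was run on simulated data in which noise was independent between genes. Its outcome is not given here, so it does not bear on the count of 0 called among the 10.

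The 10 genes and the 15 other lists were chosen with earlier results of these data known. Named genes were the 10, the target, the called genes of each other list or else the 2 with the smallest p, and the 5 with the nearest profile. A gene that this rule names is not reported here. Any further gene was named after its values were seen. Alternatives were 2 other pseudocounts, 2 other filters, 3 scalings, no robust estimation, a replicate block, single-row symbols, each library left out and, added later, a sum of both Hsd3b genes.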

Additional observations from a re-analysis of the deposited data

How the results depend on the processing

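None of the 10 genes was called under any of the alternatives, including each left-out library, so the count of called genes among them stayed at 0. The other filters, the fit without robust estimation, the replicate block and single-row symbols leave a gene's fold change as it is. Their directions were therefore fixed in advance. With these included, and the sum of both Hsd3b genes counted under Hsd3b1, 153 of 160 values of single genes kept their direction. The exceptions were Hsd3b6 (0.053 without titled KO replicate 2, and 0.016 and 0.017 without titled WT replicates 1 and 2), Star (0.054 without titled WT replicate 2) and Fdx1 (-0.0074 with equal totals, and -0.0020 and -0.063 without titled WT replicates 1 and 2). Leave-one-out ranges were -0.27 to 0.054 for Star, -0.19 to 0.053 for Hsd3b6, -0.063 to 0.081 for Fdx1, -0.36 to -0.22 for Hsd3b1, -0.31 to -0.057 for Cyp11a1, -0.30 to -0.11 for Cyp17a1, -0.34 to -0.10 for Hsd17b3, -0.15 to -0.017 for Insl3, -0.25 to -0.11 for Lhcgr and -0.23 to -0.043 for Nr5a1; the cause was not tested. The median over the 10 ranged from -0.21 to -0.072.

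Among ratios, the log2 difference for Insl3 to Star was -9.5e-05 with a pseudocount of 1 and ranged from -0.14 to 0.20 with single libraries left out. Those ranges were -0.10 to 0.014 for Cyp17a1 to Cyp11a1 and -0.11 to 0.051 for Hsd17b3 to Cyp17a1. Over all genes, 88 were called without a filter, where more genes are tested, and 73 to 233 with single libraries left out. Correlations of deviations from group means were 0.06, -0.13 and 0.06 between same-numbered libraries, and from -0.25 to 0.20 between the others. Deviations within a group add up to 0 for each gene, so these correlations depend on one another and cannot decide whether libraries pair. The main test did not pair libraries by number. Whether the numbers mark a shared preparation was not tested. With the replicate block 50 genes were called over all and 0 of the 10. For other lists, 235 of 240 counts of called genes were 0, as in the main analysis, and 220 of 239 medians moved by less than 1 SD between libraries. Counting error at the estimated depth, if all fragments came from the longest transcript, was 0.631% to 5.78% of the lowest level of each of the 10 genes, and the coefficient of variation over all 6 libraries was 6.50% to 16.4%.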
